A study of Mus musculus with 5 samples.

Results

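miR-26a-5p and miR-26b-5p are a pair of mature miRNAs whose hairpins sit inside introns of the Ctdsp genes. They were taken by name, as mmu-miR-26a-5p and mmu-miR-26b-5p, from a table of TPM values (length-corrected reads, scaled to the same total in each library) for small RNAs of OP9 cells. They make up 2 of its 1105 mature miRNAs and 3 of its 1191 rows, since miR-26a-5p is listed once for each of its hairpins. The libraries were 2 labelled Drosha KO (knockout, KO), set against 3 labelled empty vector (EV), whose genotype is given as WT. OP9 is a mouse stromal line that the labels call mesenchymal stem cells, and cells of both groups were collected at day 10 of differentiation under 1 µM rosiglitazone, a PPARγ agonist used here to drive adipocyte formation. The labels do not say whether the knockout was 1 clone, nor whether replicates came from separate cultures, so each p-value rests on a spread between libraries that could be technical.

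Drosha is the nuclear RNase III enzyme that cuts hairpins out of primary miRNA transcripts, and for miRNAs in introns it can do so while the host transcript is still being spliced. The Ctdsp hosts encode small phosphatases that act on the C-terminal domain of RNA polymerase II and help to silence neuronal genes outside neurons. In human cells miR-26 and these phosphatases were described as restraining the cell cycle together through the retinoblastoma protein, and miR-26 has been described as promoting fat cell formation in human adipocyte progenitors and as limiting it in mice.

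Both mature forms are shown here because the groups are compared on a pair that differs by so few bases. The seed, bases 2 to 8, is in capitals, and these and the hairpins further on are RefSeq sequences for GRCm38.p6.
miR-26a-5p: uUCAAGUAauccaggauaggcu
miR-26b-5p: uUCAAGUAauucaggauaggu
The seed is the stretch with which a miRNA mainly recognises its targets, and it was the same in both. Counted from 1 at the 5′ end of miR-26a-5p, the differences were C11U and C21U, and the lengths were 22 and 21 bases. Of 1679 mature miRNA names in the RefSeq table, 2 had this seed, and they are these members. The mismatches allowed in the authors' counting are not stated in any source used here, so reads of one that were counted as the other cannot be told apart from its own, and the smaller member, miR-26b-5p, is the more uncertain for it.

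The hairpins are shown because the 2 for miR-26a-5p give the same mature miRNA from different loci. The 5p arm is in capitals, and all lie on the plus strand of GRCm38.
Mir26a-1: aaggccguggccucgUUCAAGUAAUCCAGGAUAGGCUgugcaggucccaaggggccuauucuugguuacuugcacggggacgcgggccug
Mir26a-2: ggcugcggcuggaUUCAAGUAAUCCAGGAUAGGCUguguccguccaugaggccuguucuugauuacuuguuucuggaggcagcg
Mir26b: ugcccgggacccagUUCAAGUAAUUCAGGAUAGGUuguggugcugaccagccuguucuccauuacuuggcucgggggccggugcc
Mir26a-1 spans chr9:119031796-119031885 and lies in intron 5 of the 8-exon transcript Ctdspl-201, 1543 bases after the exon before it and 1650 bases ahead of the exon after it. Mir26a-2 spans chr10:126995530-126995613 in intron 5 of the 8-exon transcript Ctdsp2-202, 1621 bases after one exon and 241 bases ahead of the next. Another annotated Ctdsp2 transcript, Ctdsp2-201, starts at 126995613, the last base of that hairpin. Mir26b spans chr1:74394310-74394394 in intron 4 of the 7-exon transcript Ctdsp1-201, with 234 and 245 bases to its neighbouring exons. None of the 3 overlapped an exon of those 3 transcripts.

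The stretch between the 5p and 3p arms was 17 bases in Mir26a-1, 16 in Mir26a-2 and 15 in Mir26b, against a median of 16 over the 644 RefSeq mouse hairpins with both arms annotated. The letters UGU, described as an apical motif that helps the Drosha complex to place its cut, were searched on the transcribed strand from the last 2 bases of the 5p arm to the start of the 3p arm. All 3 hairpins held them, as did 37.0% of the 644 hairpins. Strictly between the arms, Mir26a-2 and Mir26b held them and Mir26a-1 did not, while 31.5% of the 644 hairpins did. The 3p arms of miR-26 were not analysed here.

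The KO libraries held far fewer reads of listed miRNAs. Whole reads could be recovered from the TPM values. With 1 row per mature miRNA they came to 214264 and 200659 in the KO libraries. In the EV libraries they came to 1613590, 1466825 and 1347800, a 7.11-fold difference in group means. Total sequencing depth was not analysed here, so shallower sequencing and a smaller share of miRNA reads cannot be told apart. At the length of miR-26b-5p, 1 read was worth 3.48 and 3.84 TPM in the KO libraries and 0.469, 0.523 and 0.553 TPM in the EV libraries. Each rise or fall given here is one of relative abundance, since TPM adds to the same total in every library, and in bulk RNA fewer cells making a miRNA and less of it per cell cannot be told apart. The Drosha transcript was not analysed here. The 4 tested miRNAs of a list described as made without Drosha were all called higher in KO cells, where 27.8% of the 205 tested miRNAs were. Among them was the capped-hairpin miRNA miR-484, at 21326 ± 446 TPM (SD, n = 2) in KO cells and 4094 ± 877 TPM (SD, n = 3) in the EV group. The other 3 listed did not pass the filter on low values: miR-702-5p had 1 read, and miR-320-5p and miR-1224-5p were listed at 0.

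Both miR-26 members fell in KO cells. A miRNA was called when its change in limma, fitted to log2(TPM + 1) over the 205 miRNAs that averaged 5 TPM or more, had a Benjamini-Hochberg (BH) adjusted p under 0.05. miR-26a-5p was the 9th most abundant miRNA of the EV group by mean TPM and the 11th in KO cells, where its level was 60.0% of that in EV cells. miR-26b-5p stood 45th in KO cells and 39th in the EV group, and its level in KO cells was 41.6% of that in EV cells. The fall was larger for miR-26b-5p by its estimate, but the test used for their ratio could not show that the falls differed.

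miR-26a-5p was at 18636 and 14202 TPM in KO libraries 1 and 2, against 29437, 25775 and 26877 TPM in EV libraries 1, 2 and 3. Both KO libraries were below every EV library, and KO library 2 was the lower of its pair. Such a gap was common: of the 205 tested miRNAs, 151 had groups that did not overlap, 78 of them lower in KO cells. The miR-26a-5p values rest on 5618 and 3873 reads in KO cells and 65711, 51644 and 50952 reads in the EV group. The group levels were 16419 ± 3136 TPM (SD, n = 2) in KO cells and 27363 ± 1879 TPM (SD, n = 3) in EV cells. The log2 change was -0.75 (SE 0.21, 95% interval -1.19 to -0.31, limma, BH-adjusted p = 0.00518). The call was lost without EV library 1 (log2 change -0.69, limma, BH-adjusted p = 0.0659), which held the highest value of miR-26a-5p.

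miR-26b-5p was at 848 and 519 TPM in KO libraries 1 and 2, against 1468, 1825 and 1633 TPM in EV libraries 1, 2 and 3. Again the groups did not overlap, as for 151 of the 205 tested miRNAs. The lowest EV library was 1, the library in which miR-26a-5p was highest. The reads behind these values were 244 and 135 in KO cells and 3129, 3491 and 2955 in the EV group, so miR-26b-5p was far above the floor of 3 reads that a count of 0 allows. Its mean was 683 ± 233 TPM (SD, n = 2) in KO cells and 1642 ± 179 TPM (SD, n = 3) in EV cells. The log2 change was -1.30 (SE 0.26, 95% interval -1.83 to -0.77, limma, BH-adjusted p = 0.000297), and the call held without each of the 5 libraries in turn.

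**Figure D1:**
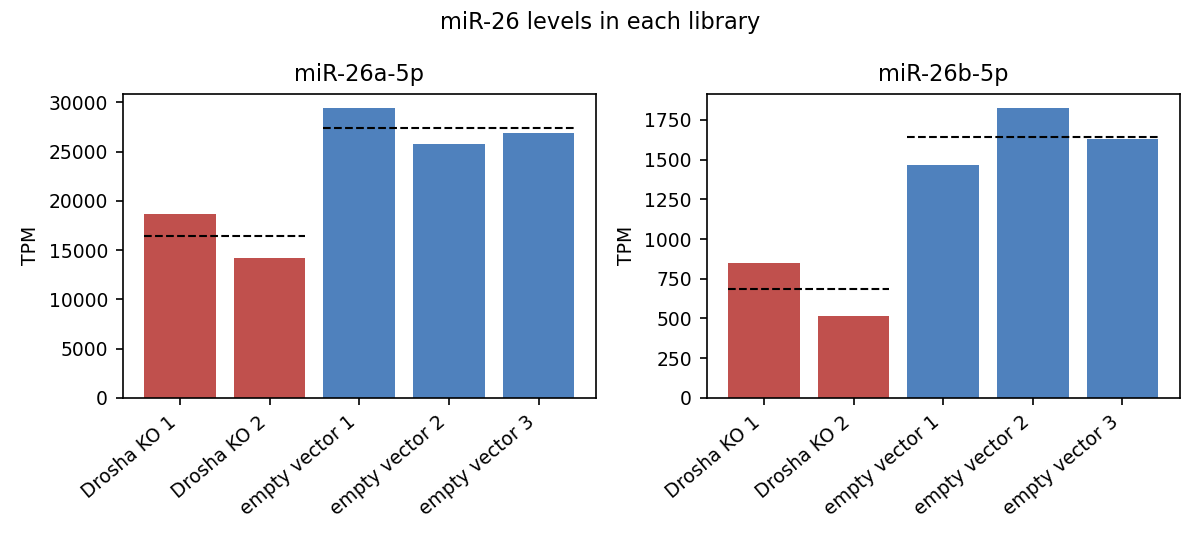
TPM of miR-26a-5p (left, the Mir26a-2 row) and miR-26b-5p (right) in each of the 2 Drosha KO and 3 EV libraries, with group means as dashed lines. Both knockout bars lie below every EV bar in each panel, and KO library 2 is the lowest in both. The groups did not overlap for 151 of the 205 tested miRNAs.

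Over all 205 tested miRNAs, 55.1% were called, 27.3% as lower and 27.8% as higher in KO cells, and both members were among those called lower. Of the 44 tested miRNAs that averaged 1000 TPM or more, both members included, 16 were called lower and 9 higher. The median log2 change of all tested miRNAs was -0.08. Of the 56 called lower, 51 had a larger fall than miR-26a-5p and 28 a larger fall than miR-26b-5p, and the median log2 change among them was -1.32. Of the 8 miRNAs above miR-26a-5p in the EV group, 1 was called lower, and it was let-7i-5p at 22458 ± 4157 TPM in KO cells against 32290 ± 5388 TPM in EV cells (log2 change -0.52, limma, BH-adjusted p = 0.0463). That call was lost without EV library 1 (-0.55), without EV library 2 (-0.39) and without KO library 2 (-0.33), and with a pseudocount of 0.1, no filter on low values or reads thinned to equal totals. Of the 38 miRNAs above miR-26b-5p in the EV group, 14 were called lower.

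**Figure D2:**
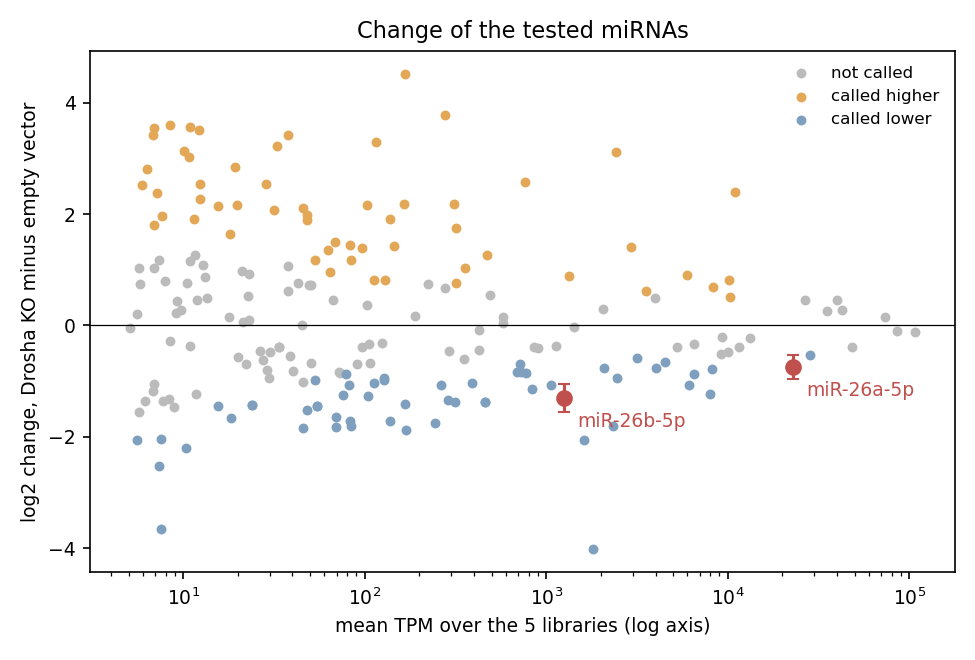
Log2 change (Drosha KO minus EV) of each of the 205 tested miRNAs against its mean TPM on a log axis, with the miR-26 members in red and their SE as bars. miR-26a-5p at -0.75 lies among the most abundant miRNAs. miR-26b-5p at -1.30 is also among the 44 tested miRNAs that averaged 1000 TPM or more.

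Next to miR-26a-5p in level, the order of miRNAs differed between the groups. In KO cells its neighbours were let-7i-5p and miR-484 above, and miR-125b-5p (13676 ± 1434 TPM, SD, n = 2) and miR-143-3p (12506 ± 56.6 TPM, SD, n = 2) below. The difference from miR-125b-5p was within the spread of the KO libraries. In the EV group let-7i-5p and miR-149-5p (32189 ± 3866 TPM, SD, n = 3) stood above miR-26a-5p, and miR-93-5p (22765 ± 1708 TPM, SD, n = 3) and miR-21a-5p (14054 ± 888 TPM, SD, n = 3) below it. Between the groups miR-125b-5p (log2 change 0.82, limma, BH-adjusted p = 0.00313) and miR-143-3p (0.51, BH-adjusted p = 0.0463) were called higher. The changes of miR-93-5p (0.46), miR-149-5p (0.26) and miR-21a-5p (-0.22) did not pass. With each library scaled so that the Drosha-independent list had the same sum in all, the signs of miR-125b-5p, miR-143-3p, miR-93-5p and miR-149-5p turned negative, and that of miR-149-5p also under TMM scaling (trimmed mean of M-values, which assumes that most miRNAs did not change). The call of miR-143-3p was lost without any 1 of the 5 libraries, under TMM (0.22) and median-of-ratios scaling (0.43), with no filter on low values, in limma-voom and with reads thinned to equal totals.

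The neighbours of miR-26b-5p in KO cells were miR-214-5p (725 ± 115 TPM), miR-296-5p (724 ± 106 TPM), miR-10a-5p (644 ± 162 TPM) and miR-140-5p (629 ± 256 TPM; SD, n = 2 each), none of which differed from it beyond the spread. In the EV group they were miR-574-5p (1878 ± 181 TPM), miR-145a-5p (1659 ± 592 TPM), miR-16-5p (1435 ± 311 TPM) and miR-10a-5p (1338 ± 163 TPM; SD, n = 3 each). The last differed from miR-26b-5p by more than the SD of either, as did miR-574-5p, while miR-145a-5p and miR-16-5p lay within the spread. miR-10a-5p, a miRNA of the Hox clusters, was next below miR-26b-5p in KO cells and came after miR-16-5p in the EV group. It too was called lower (log2 change -1.07, limma, BH-adjusted p = 0.00134).

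The rows for the 2 hairpins of miR-26a-5p could not separate the loci. The Mir26a-1 row averaged 16416 ± 3136 TPM (SD, n = 2) in KO cells and 27361 ± 1880 TPM (SD, n = 3) in the EV group. The Mir26a-2 row held only 1 read more than the Mir26a-1 row in each KO library, and 1, 6 and 5 reads more in the EV libraries. Nearly every miR-26a-5p read was thus counted at both hairpins, and how much came from Ctdspl and how much from Ctdsp2 was not measured.

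The ratio of miR-26a-5p to miR-26b-5p, which no scaling of a library can change, was 22.0 and 27.4 in KO libraries 1 and 2, against 20.0, 14.1 and 16.5 in EV libraries 1, 2 and 3. The lowest knockout ratio lay just above the highest EV ratio. On the log2 scale the ratio averaged 4.62 ± 0.22 (SD, n = 2) in KO cells and 4.06 ± 0.25 (SD, n = 3) in EV cells. The difference of 0.55, a 1.47-fold higher ratio in KO cells, is also the difference between the changes of the 2 miRNAs. Its two-sided exact permutation p was 0.2, the smallest that 2 libraries against 3 can give in this test. The test thus could not show that miR-26b-5p changed more than miR-26a-5p, and no other kind of test of the ratio was run. The difference was 0.71 without KO library 1, 0.40 without KO library 2, 0.69 without EV library 1 and 0.43 without EV library 2.

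In reads, miR-26b-5p made up 4.16% of miR-26 reads in KO library 1 (95% Wilson interval 3.68% to 4.70%) and 3.37% in KO library 2 (2.85% to 3.97%). It made up 4.55% in EV library 1 (4.39% to 4.70%), 6.33% in library 2 (6.13% to 6.54%) and 5.48% in library 3 (5.29% to 5.68%). The intervals of KO library 1 and EV library 1 overlapped, while those of the 3 EV libraries lay apart from one another. EV libraries thus differed among themselves by more than counting error, which is all that these intervals cover. The mean share was 3.77% ± 0.562 (SD, n = 2) in KO cells and 5.45% ± 0.894 (SD, n = 3) in the EV group (two-sided exact permutation p = 0.2).

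**Figure D3:**
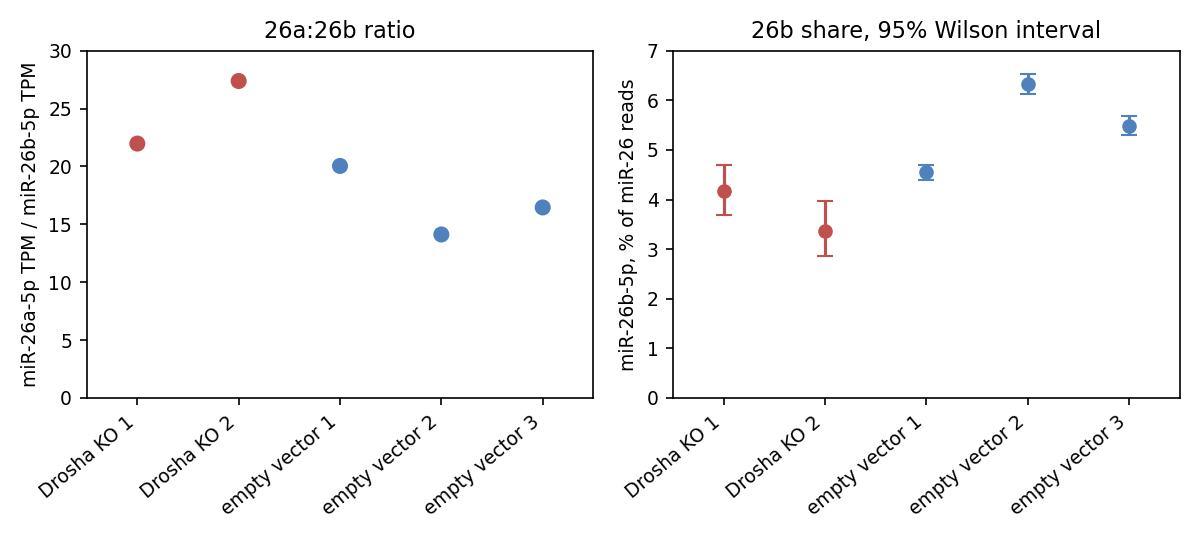
Left, ratio of miR-26a-5p to miR-26b-5p TPM in each library; right, miR-26b-5p as a percentage of miR-26 reads with 95% Wilson intervals. The ratio is 22.0 and 27.4 in KO cells and 14.1 to 20.0 in the EV group, and the intervals of KO library 1 and EV library 1 overlap on the right.

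Added together, the pair took 2.77% and 2.03% of the TPM of all listed miRNAs in the KO libraries, against 4.33%, 3.81% and 4.05% in the EV libraries, with 1 row per mature miRNA. Nearly all of it was miR-26a-5p, with 2.30% ± 0.487 (SD, n = 2) in KO cells and 3.84% ± 0.282 (SD, n = 3) in the EV group. The difference in the summed share was -1.67 percentage points (two-sided exact permutation p = 0.2, again the smallest possible). Since both forms have the same seed, this sum is the share of the listed TPM that carried it. Few of the tested miRNAs were 3p arms, so the sum is not a share of all miRNAs in the cells.

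Both falls kept their direction under each scaling tried, and their size differed. Under TMM the log2 change was -1.03 for miR-26a-5p and -1.59 for miR-26b-5p, while the median of all tested miRNAs was -0.39. With each library scaled so that the Drosha-independent list had the same sum in all, the changes were -3.27 and -3.82, and the median of all tested miRNAs was -2.72. Relative to the median of each scaling, the log2 change of miR-26a-5p was -0.66 as deposited, -0.64 under TMM and -0.54 under that rescaling, and that of miR-26b-5p was -1.22, -1.20 and -1.09 in the same order. These gaps depend on the filter. Among the miRNAs averaging at least 50 TPM the median was -0.39 as deposited, and the gaps were -0.36 for miR-26a-5p and -0.91 for miR-26b-5p. The Drosha-independent rescaling fixes the list's sum by construction, and miR-484 dominates the list.

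**Figure D4:**
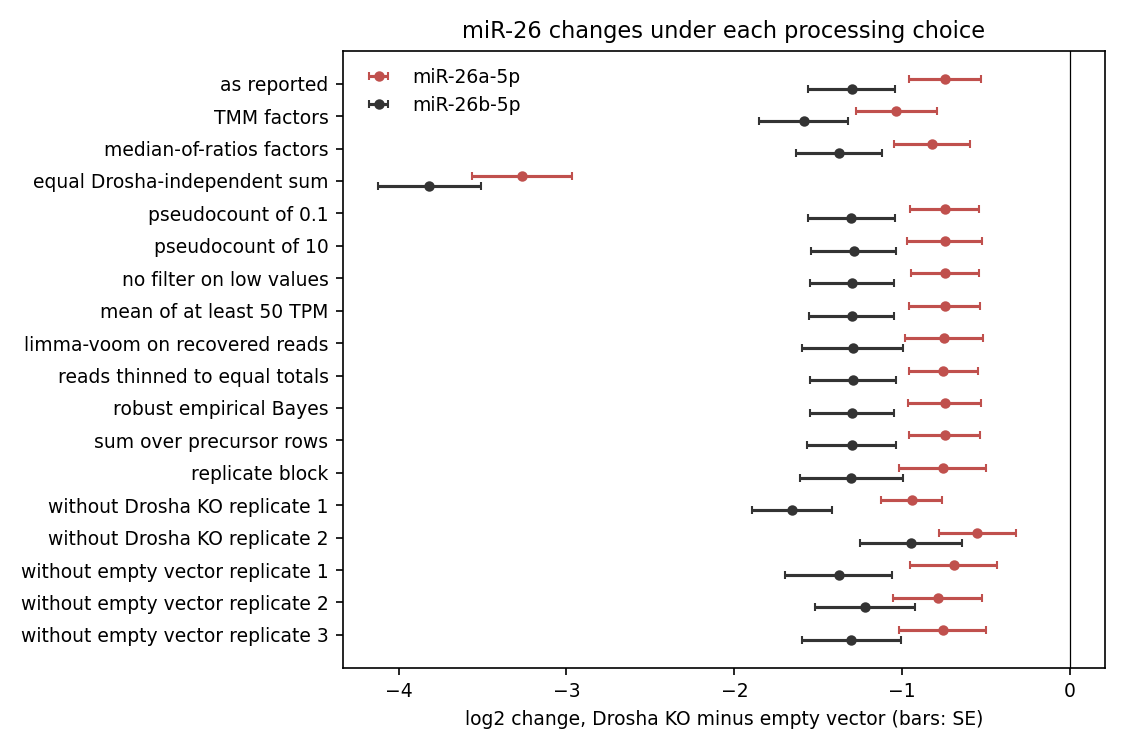
Log2 change (Drosha KO minus EV) of miR-26a-5p in red and miR-26b-5p in black under the reported fit and each alternative, with SE bars. All changes are below 0, and those under an equal Drosha-independent sum, -3.27 and -3.82, are far below the rest.

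The miRNAs whose pattern over the 5 libraries was most like that of each member were taken by Pearson's r of log2(TPM + 1) among the 94 miRNAs that averaged 100 TPM or more. These r values describe 5 points that fall into 2 groups and carry no test. For miR-26a-5p they were miR-378c (0.98), miR-10a-5p (0.98), miR-467e-5p (0.97), miR-378d (0.96) and miR-466c-5p (0.96). miR-26b-5p itself came next with an r of 0.95. For miR-26b-5p they were miR-669f-5p (0.99), let-7e-5p (0.99), miR-467e-5p (0.99), miR-669o-5p (0.98) and let-7f-5p (0.98), and miR-26a-5p stood 16th.

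All of these were called lower in KO cells, where 27.3% of the 205 tested miRNAs were. They were picked for a pattern like that of members that fell, so their direction was largely set by the choice. let-7e-5p, of the let-7 family, was at 3729 ± 1271 TPM in KO cells against 7663 ± 1130 TPM in EV cells (log2 change -1.07), and let-7f-5p at 2839 ± 343 TPM in KO cells against 4795 ± 489 TPM in EV cells (-0.76; SD, n = 2 and n = 3). miR-378d was at 149 ± 14.1 TPM in KO cells against 380 ± 16.5 TPM in EV cells (-1.34), and miR-467e-5p at 82.9 ± 18.8 TPM in KO cells against 158 ± 12.4 TPM in EV cells (-0.94). miR-467e-5p, miR-669f-5p (-1.03), miR-669o-5p (-1.88) and miR-466c-5p (-1.75) belong to families of near-identical copies that share reads, and miR-378c (-2.06) and miR-378d are close to other miR-378 members, so their values are uncertain. The calls of miR-467e-5p and miR-669f-5p were lost without KO library 2, EV library 1 or EV library 2, and in limma-voom.

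Other intronic miRNAs were compared with the pair. A list of 44 was written with protein-coding hosts in mind, without miR-26 and with 5p arms only. In it 41 were in the table, 33 had reads and 22 passed the filter on low values. Of those 22, 9 were called lower and 1 higher, and 12 did not pass. The share called lower was 40.9%, against 27.3% over all tested miRNAs. The median log2 change was -0.63, against -0.08 for all tested miRNAs. For 14 of the 22 GENCODE placed a listed hairpin inside a protein-coding gene on the same strand. Among these 14 only 3 were lower, 1 was higher and 10 did not pass, with a median of 0.12. Hosts were not found by position for the other 8: 5 had no hairpin in the RefSeq table used, and the hairpins of miR-191, miR-425 and miR-674 lay within no protein-coding gene of that strand. The list had 4 lower without EV library 1, 13 under TMM and 21 under the Drosha-independent rescaling. It had 4 higher without KO library 1, 2 without EV library 3, and 0 under TMM, under that rescaling, with no filter on low values and without EV library 1 or 2.

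Of these intronic miRNAs, miR-204-5p of Trpm3, which targets the osteogenic factor Runx2, was at 202 and 139 TPM in the KO libraries, against 3825, 3349 and 1558 TPM in the EV libraries. miR-15b-5p of Smc4 was at 1194 and 715 TPM in the KO libraries, against 3179, 4029 and 2591 TPM in the EV libraries. The study chose these 2 miRNAs, which its title names, so their direction is not independent evidence. Their log2 changes were -4.01 and -1.80, both larger falls than those of the miR-26 members.

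miR-28a-5p was at 58.3 ± 25.4 TPM in KO cells against 136 ± 25.7 TPM in EV cells (log2 change -1.26, limma, BH-adjusted p = 0.00582), miR-191-5p at 4317 ± 6.34 TPM in KO cells against 7923 ± 893 TPM in EV cells (-0.87, BH-adjusted p = 0.00209) and miR-425-5p at 536 ± 224 TPM in KO cells against 928 ± 156 TPM in EV cells (-0.84, BH-adjusted p = 0.0142; SD, n = 2 and n = 3). The call of miR-28a-5p was lost without KO library 2 (-0.81). The call of miR-425-5p was lost without KO library 1 (-0.41), EV library 1 (-0.94) or EV library 2 (-0.71), and with no filter on low values. miR-30c-5p, from introns of Nfyc and another locus, had 360 ± 136 TPM in KO cells against 223 ± 61.0 TPM in EV cells and did not pass (0.67, BH-adjusted p = 0.0778). The 1 called higher was miR-139-5p of Pde2a, named here after its value was seen, at 4498 ± 826 TPM in KO cells against 2901 ± 335 TPM in EV cells (0.63, BH-adjusted p = 0.0243). That call was lost under TMM, with no filter on low values, with the equal Drosha-independent sum, and without EV library 1 or 2.

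**Figure D5:**
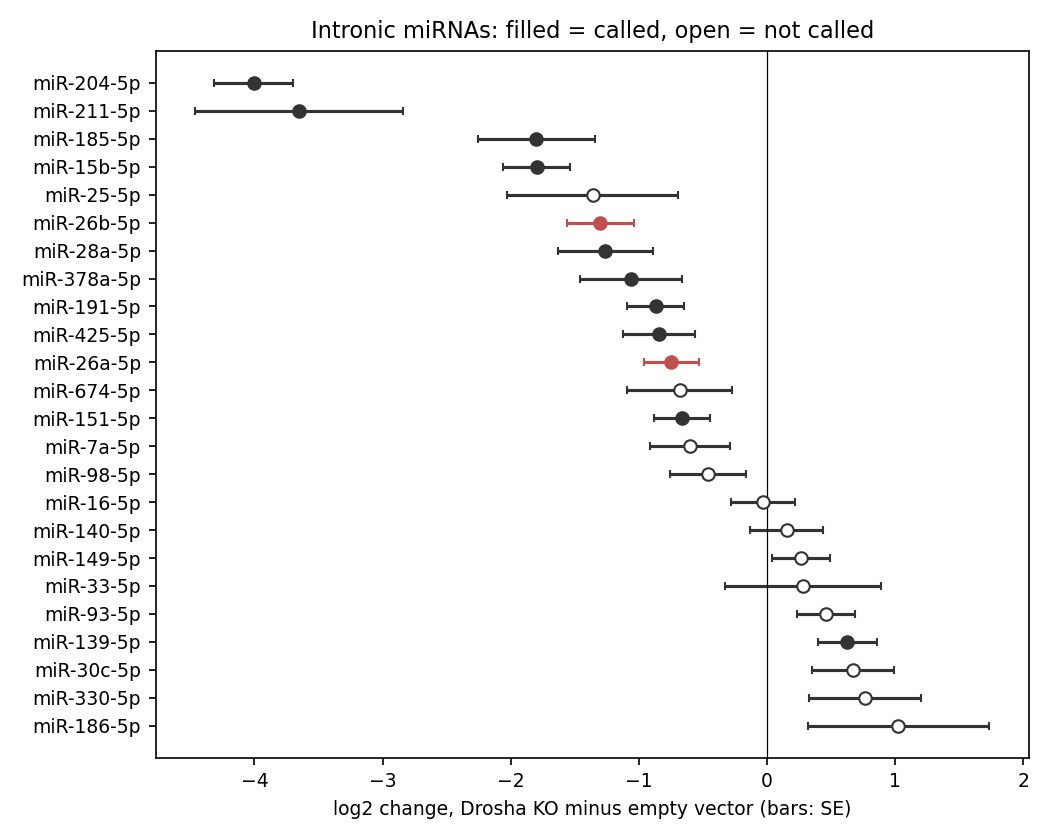
Log2 change (Drosha KO minus EV) with SE for the 22 tested miRNAs of the intronic list and, in red, the 2 miR-26 members; filled points passed the threshold and open points did not. The changes run from -4.01 for miR-204-5p to 1.03 for miR-186-5p, and the miR-26 members lie among the falls.

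A list of 20 other miRNAs described as promoting adipocyte formation was read by their 5p arms only. Its counts thus do not cover the 3p arms of the same hairpins. Among the 20 listed, 17 were in the table, 15 had reads and 11 passed the filter. Of these, 4 were called higher, 2 lower and 5 did not pass, against 27.8% higher and 27.3% lower over all 205 tested. The median log2 change was 0.67. The list had 2 higher and 1 lower with no filter on low values, 4 lower under TMM, 0 higher and 11 lower under the Drosha-independent rescaling, and 1 lower in limma-voom and with reads thinned to equal totals. The falls were those of miR-204-5p and miR-378a-5p, and the miR-26 members, not on this list, were also called lower. The rises included miR-30d-5p, at 8463 ± 3838 TPM in KO cells against 4324 ± 873 TPM in EV cells (log2 change 0.91, limma, BH-adjusted p = 0.00497), and miR-30a-5p, at 428 ± 183 TPM in KO cells against 247 ± 66.7 TPM in EV cells (0.76, limma, BH-adjusted p = 0.0468; SD, n = 2 and n = 3), of a family that targets Runx2. Both calls were lost without KO library 2 (0.43 and 0.31) and without EV library 1 (0.74 and 0.53), and both with no filter on low values. That of miR-30a-5p was also lost without EV library 3 (0.80), under TMM (0.47) and median-of-ratios scaling (0.68), with a pseudocount of 0.1 and with precursor rows summed. Both signs turned negative under the Drosha-independent rescaling. miR-146b-5p (-0.40) and miR-21a-5p (-0.22) did not pass. Without KO library 2 the list had 2 higher, without EV library 1 it had 2 higher and 1 lower, and without KO library 1 or EV library 3 it had 1 lower.

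Markers of cell type were read in the same libraries. All 7 miRNAs of a mesenchymal list had reads, with a summed level of 12212 and 20600 TPM in the KO libraries and 7640 to 10658 TPM in the EV libraries, and of 6 tested 2 were called higher, miR-145a-5p and miR-199a-5p, and 0 lower, a share of 33.3% higher against 27.8% over all tested. Both calls were lost without KO library 2 or EV library 1. That of miR-199a-5p was also lost under TMM (0.41) and with no filter on low values, and that of miR-145a-5p with robust empirical Bayes, and both signs turned negative under the Drosha-independent rescaling. The mesenchymal list held 5p arms only, and miR-143-5p was listed at 0 in both KO libraries. The other arm, miR-143-3p, not on this list, was at 12506 ± 56.6 TPM (SD, n = 2) in KO cells. In EV cells miR-143-3p was at 8811 ± 673 TPM (SD, n = 3). It was called higher, a call lost under TMM (0.22). miR-214-5p did not pass (-0.39). Of 17 markers of other cell types 12 were at 0 in all libraries. Apart from miR-451a the markers were listed as 5p arms only. A 0 thus covers the 5p arm and does not show that the 3p arm or the cell type was absent. The summed level of the 17 was 65.9 and 110 TPM in the KO libraries and 42.2 to 48.6 TPM in the EV libraries. Of 4 of them tested, erythroid miR-451a (39.3 ± 27.4 TPM in KO cells against 6.99 ± 1.73 TPM in EV cells) and hepatic miR-122-5p (31.1 ± 7.65 TPM in KO cells against 9.63 ± 3.78 TPM in EV cells; SD, n = 2 and n = 3) were called higher, again beside 27.8% over all tested. The part of these markers in the miR-26 falls was not tested.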

How the data were processed

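The 2 Drosha knockout and 3 empty-vector small RNA libraries of OP9 cells were read from the TPM values the authors deposited, in which reads are divided by a length and scaled so that each library has the same sum. Bowtie2 2.5.1 and build GRCm38 are named, with no role, per the submitters' processing notes. The labels' protocols mention unique molecular identifiers, but no source used here states how they were used, which tool counted reads or which mismatches it allowed. Each value was multiplied by the mature length and divided by that of 1 read, which gave whole reads for 100% of values (tolerance 1e-06). Of 536 pairs of miRNA and precursor with reads, 406 had a RefSeq length, and it fitted in all 406. For the rest the shortest length from 15 to 30 bases that gave whole reads was used. Whole reads are thus no check for those pairs, nor for values of 0. For each mature miRNA the precursor row of highest mean was kept, and those averaging 5 TPM or more entered limma-trend (limma 3.58.1, R 4.3.3), fitted to log2 values with a pseudocount of 1, with two-sided p-values adjusted by the Benjamini-Hochberg method (BH, threshold 0.05). Ratios and shares, of which each library has 1, were compared by exact permutation in scipy 1.17.1. Sequences and hairpin positions came from RefSeq (GRCm38.p6) and host genes from GENCODE M21 on the same build. The other miRNAs named were the 5 whose pattern over the libraries was most like each member at a mean of at least 100 TPM, those next to a member in level, and list members of largest change. The members, the lists and this rule were chosen with earlier results of these data known. The fit was tested on simulated data. Alternatives covered scaling, pseudocount, filter, depth, precursor rows, a replicate block and each library left out.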

Additional observations from a re-analysis of the deposited data

How the results depend on the processing

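miR-26b-5p was called lower under all 12 alternatives other than leaving out a library (log2 change -3.82 to -1.29, limma, BH-adjusted p 7.96e-09 to 0.00805), and miR-26a-5p under the same 12 (-3.27 to -0.75, adjusted p 1.47e-08 to 0.0276). Leaving out 1 library gave -1.66 to -0.95 for miR-26b-5p and -0.94 to -0.55 for miR-26a-5p, and 0.40 to 0.71 for the log2 ratio difference, which was 0.54 after thinning all libraries to 200659 reads. As reported, the 205 tested held 57 higher and 56 lower. The counts were 48 and 80 under TMM, 4 and 169 with an equal Drosha-independent sum, 31 and 45 at a mean of at least 50 TPM (118 tested), and 39 to 61 higher and 29 to 54 lower with 1 library left out, the lowest without empty-vector library 1. Apart from the smaller number tested or left in, the cause was not tested. Deviations from the group means were not positively correlated between libraries with the same replicate number (correlation -0.12 and -0.14 over 205 miRNAs). The deviations of the 2 knockout libraries mirror each other, so these values are not independent and cannot show that replicates were unpaired. A fit with the replicate number as a block gave 39 higher and 35 lower, with miR-26a-5p at -0.76 and miR-26b-5p at -1.30, both called; the calls of miR-143-3p, miR-28a-5p, miR-30a-5p, miR-467e-5p and miR-669f-5p were lost in it. Other miRNAs taken by the naming rule were run under the same alternatives, chosen after seeing the data; miR-139-5p, miR-186-5p, miR-378a-5p, miR-122-5p and miR-451a were not run singly. With an equal Drosha-independent sum the sign was reversed for miR-125b-5p (-1.70), miR-140-5p (-2.36), miR-143-3p (-2.01), miR-145a-5p (-1.11), miR-149-5p (-2.26), miR-199a-5p (-1.82), miR-296-5p (-1.25), miR-30a-5p (-1.75), miR-30c-5p (-1.84), miR-30d-5p (-1.61), miR-484 (-0.12), miR-574-5p (-2.22) and miR-93-5p (-2.06). It was also reversed for miR-140-5p (-0.13) and miR-149-5p (-0.023) under TMM. Leaving out 1 library gave -0.27 to 0.58 for miR-140-5p and -0.055 to 0.58 for miR-149-5p, each lowest without knockout library 2, and -0.15 to 0.14 for miR-16-5p, highest without empty-vector library 2. The small number of miRNA reads in the knockout libraries limits low miRNAs most. miR-26b-5p had 135 reads in the knockout library with the fewer miRNA reads.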
